A study of Mus musculus with 18 samples.

Results

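The pericentral zonation genes are the genes that hepatocytes around the central vein of the liver lobule transcribe more than the rest of the lobule does. A set of 10 of them was chosen by name out of 54532 genes in the deposited table: Glul, Cyp2e1, Cyp1a2, Oat, Axin2, Lgr5, Slc1a2, Rhbg, Tbx3 and Rgn. The rule that chose them names the genes and sets no threshold on a measured value. The members and the lists below were chosen with earlier results of these data known. Their counts beside the shares of all tested genes are therefore descriptions and not independent tests. All 10 were measured in whole liver of 18 male mice by RNA sequencing (C57BL/6 in the labels, C57BL/6J in the study's methods), with 6 mice in each of 3 groups, and 9 of them reached the mean level required for testing. The question asked of the comparisons is how the transcript levels of these genes differed between diets, and between high-fat diet with and without SZ-A, in the same tissue.

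The normal control (NC) mice ate a standard chow. The HFD mice ate a high-fat diet for 14 weeks after arriving at 6 weeks of age and 1 week of acclimatization, and went on with it while they received saline. The SZ-A mice ate the same high-fat diet over the same time and received SZ-A, the alkaloids of Ramulus Mori (Sangzhi, mulberry twig), in the last stage. The length of that last stage is 6 weeks in the study's methods and 8 weeks in the series description. The dose and the route given to the sequenced mice are not stated in the sources used here. All mice were fasted overnight before the liver was taken, so every level below is that of a fasted liver, and the high-fat diet is shared by the HFD and SZ-A groups. The replicates were separate mice by their labels. The mouse titled as the sixth chow animal carries a high-fat diet label. It was kept in NC by its title, and values without it are given where it bears on a result.

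The liver lobule is organised along the flow of blood from the portal vein to the central vein, and hepatocytes at the ends of that path do different work. Endothelial cells around the central vein release Wnt ligands and R-spondin, which stabilise beta-catenin in the nearest hepatocytes. Beta-catenin with a TCF/LEF factor then holds on genes for glutamine synthesis, ornithine use, ammonium transport and drug oxidation, while urea synthesis and glucose production are held towards the portal side. Whole-liver RNA averages all zones. In such bulk samples fewer cells of a type and less RNA per cell cannot be told apart, and neither can a wider pericentral zone and a higher level within it.

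Upstream sequence was at hand for 6 of the 10 members (Glul, Cyp2e1, Cyp1a2, Oat, Axin2 and Slc1a2) in the RefSeq promoter table on GRCm38.p6. The 250 bases before each start site were searched on both strands for the core of the TCF/LEF site, CTTTGA or its reverse complement TCAAAG, and for the core that the aryl hydrocarbon receptor binds, GCGTG or CACGC. The TCF/LEF core was found in the windows of Cyp2e1, Cyp1a2 and Slc1a2 and not in those of Glul, Oat and Axin2, beside 13.8% of 32817 windows of the same length over all genes. The receptor core was in none of the 6 windows, beside 28.1% of all windows. A match is only a run of letters, and no match says only that these letters are not in this window. The sequences are those of Glul, the reference gene of the zone, and of the 3 members with a match, 5′ to 3′ on the gene's own strand, with the TCF/LEF core in capitals. Bases that the annotation places in an exon were left out of what is printed. They are chr1:153899679-153899928 (+) for Glul, chr7:140763569-140763738 (+) for Cyp2e1, chr9:57683704-57683905 (−) for Cyp1a2 and chr2:102706188-102706355 (+) for Slc1a2.
Glul: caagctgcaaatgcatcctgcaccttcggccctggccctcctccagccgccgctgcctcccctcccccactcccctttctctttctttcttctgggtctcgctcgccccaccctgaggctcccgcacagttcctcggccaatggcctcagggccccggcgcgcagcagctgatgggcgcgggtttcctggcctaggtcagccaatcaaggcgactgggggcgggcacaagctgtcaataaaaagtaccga
Cyp2e1: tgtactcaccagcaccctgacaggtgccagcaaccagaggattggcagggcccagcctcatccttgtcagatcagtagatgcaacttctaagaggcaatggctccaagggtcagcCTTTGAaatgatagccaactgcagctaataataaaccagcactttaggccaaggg
Cyp1a2: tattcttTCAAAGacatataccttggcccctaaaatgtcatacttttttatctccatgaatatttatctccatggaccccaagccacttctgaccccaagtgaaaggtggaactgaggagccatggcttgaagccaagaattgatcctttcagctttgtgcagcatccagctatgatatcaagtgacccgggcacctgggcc
Slc1a2: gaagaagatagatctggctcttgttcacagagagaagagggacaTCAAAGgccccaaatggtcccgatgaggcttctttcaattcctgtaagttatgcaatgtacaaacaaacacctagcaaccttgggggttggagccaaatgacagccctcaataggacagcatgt
The match of Cyp2e1 lay 135 to 130 bases before the start site, that of Cyp1a2 243 to 238 bases before it, and the printed match of Slc1a2 206 to 201 bases before it. A second match of Slc1a2, 77 to 72 bases before the start site, lay in the exonic bases that were left out. The RefSeq start site used for Slc1a2 lies 47779 bases inside the gene as the table bounds it, so this window belongs to an internal start.

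Depth was even across the mice, at 17163191 to 20493907 fragments on genes per mouse worked back from the FPKM values, and the mitochondrial genes took 3.14 to 4.87% of them. The FPKM values are fragments scaled to transcript length and to a library size. That library size, worked back from the values, was not the fragment total. Its ratio to the fragments on genes had a median of 0.979 for NC mice (range 0.9325 to 1.025). HFD mice had a median ratio of 1.111 (range 0.9983 to 1.141), and SZ-A mice 1.012 (range 0.9718 to 1.047). The FPKM sums were lower by median for HFD mice, at 353946 to 424825. NC mice had sums of 402436 to 489187, and SZ-A mice 400729 to 442892. How far this ratio accounts for the lower sums was not tested. The effect of rescaling to a common sum on the members and on the lists is given with the results. The markers of hepatocytes were high in every mouse, with summed FPKM from 22940 to 55000 over 5 genes. By the calls defined below, 10.7% of all tested genes were higher in HFD than in NC and 9.49% were lower. Among the markers, 3 of 5 for macrophages, 4 of 5 for stellate cells and 1 of 5 for endothelial cells were higher. Of the 5 hepatocyte markers 1 was lower. The summed FPKM of the macrophage markers ran from 80.5 to 166 in NC and from 125 to 235 in HFD. Those of the stellate cell markers ran from 33.3 to 47.1 and from 36.1 to 75.8, and those of the endothelial markers from 42.2 to 50.7 and from 48.6 to 60.7. Between SZ-A and HFD 1 macrophage marker was lower, beside 0.0685% of all tested genes. Between SZ-A and NC 1 macrophage marker was higher, beside 5.31% of all tested genes, and 1 cholangiocyte and 1 adipocyte marker were lower, beside 4.3%. Only 2 of the 5 cholangiocyte markers were tested. Of the 3 too low to test, Krt19 had a mean of 0.598 FPKM in NC and 1.70 in SZ-A, and Krt7 0.0755 and 0.14. Epcam went the other way, with 1.01 FPKM in NC and 0.923 in SZ-A. The adipocyte marker was Cidec, with a mean of 54.35 FPKM in NC and 18.7 FPKM in SZ-A. The other adipocyte markers, Adipoq, Plin1 and Lep, were below 1 FPKM and not tested. No defining marker of these cell types was at 0, and their part in the differences below was not tested.

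The levels per length of the members differed widely. Cyp2e1 stood at a mean of 5142 FPKM over the 18 mice, and only 8 of the tested genes were higher. Oat followed at 854 FPKM, Rgn at 470 FPKM, Glul at 399.5 FPKM and Cyp1a2 at 169 FPKM. Slc1a2 at 19.0 FPKM, Tbx3 at 5.66 FPKM, Axin2 at 1.79 FPKM, Rhbg at 1.36 FPKM and Lgr5 at 0.619 FPKM closed the order. Of the 9 pairs of neighbours in this order, 5 did not overlap within any group. The exceptions were Rgn and Glul, which overlapped in all 3 groups, Oat and Rgn, and Axin2 and Rhbg, which overlapped in HFD and in SZ-A, and Rhbg and Lgr5, which overlapped in NC. Rgn was above Glul in 2 of 6 NC mice, in 3 of 6 HFD mice and in 5 of 6 SZ-A mice. The enzymes were read from no fewer than 2712 fragments in any mouse, while Axin2 had 124 to 245 fragments, Lgr5 59 to 222 and Rhbg 15 to 108. Counting alone gives a spread of about 18.4% for Rhbg in NC, beside a measured coefficient of variation of 43.6%.

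**Figure D1:**
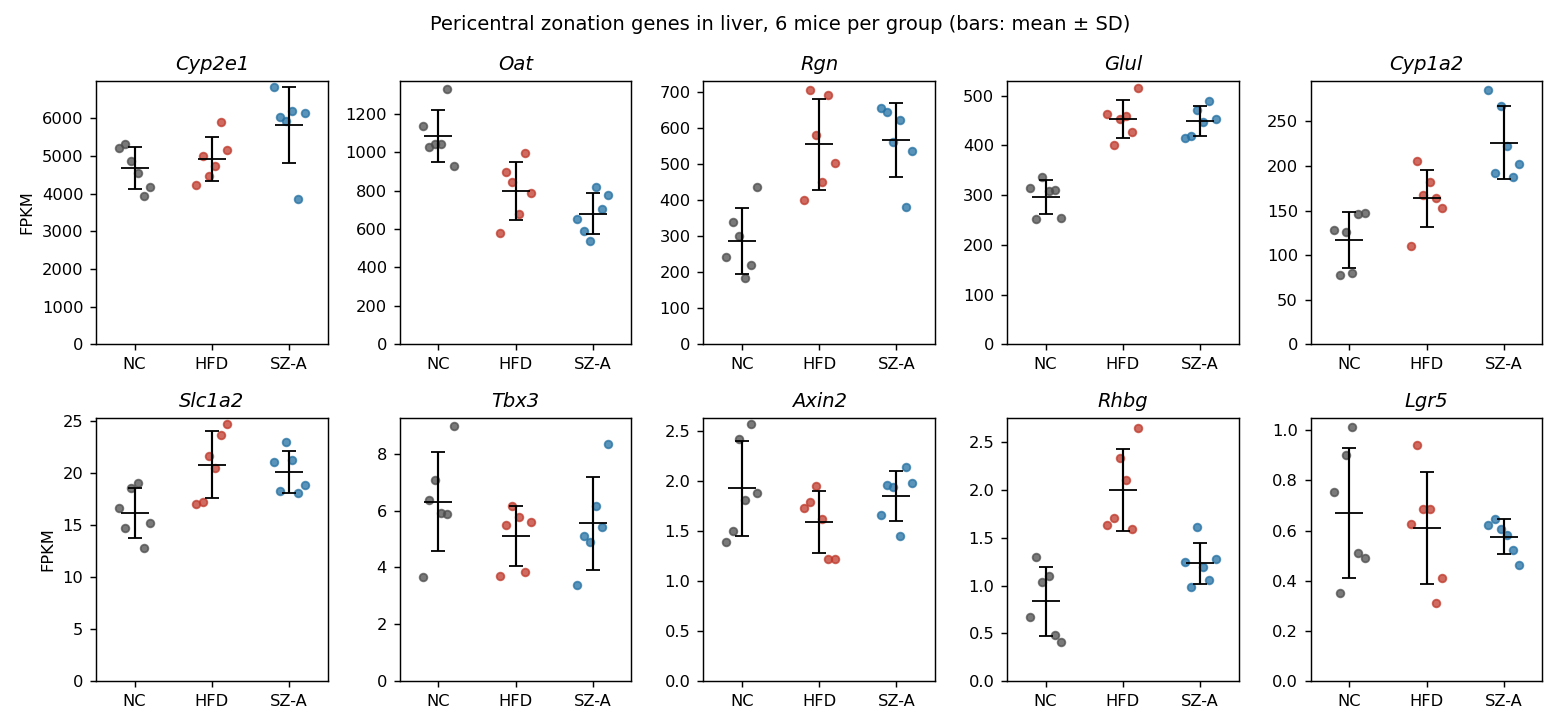
FPKM of the 10 pericentral genes (vertical axes, each from 0) in NC, HFD and SZ-A liver, 1 point per mouse, with bars for the mean ± SD of 6 mice. Glul and Rhbg do not overlap between NC and HFD, Oat lies lower in both high-fat groups, and the lowest SZ-A points of Cyp2e1 (3857 FPKM) and Rgn (381 FPKM) belong to the same mouse.

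Between the HFD and NC mice, Glul, Rgn and Rhbg rose and Oat fell, while Cyp2e1, Cyp1a2, Slc1a2, Tbx3 and Axin2 did not pass the test. A gene was called where limma's test on log2(FPKM + 0.1), adjusted by Benjamini and Hochberg's method over 10216 genes, gave an adjusted p below 0.05 and the fold change exceeded 1.2. The 4 members called are out of 9 tested, beside 20.2% of all tested genes. In the upward direction 3 of 9 were called beside 10.7%, and in the downward direction 1 of 9 beside 9.49%. The median log2 fold change of the 9 members was 0.36, beside −0.03 for all tested genes. The groups did not overlap for 2 of the 10 members, beside 10.5% of all tested genes. At an unadjusted p below 0.05 there were 6 of 9, beside 34.8% of all tested genes.

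Glul encodes glutamine synthetase, which takes up the ammonium that the urea cycle leaves and marks the innermost pericentral layer of hepatocytes. Its gene is on chromosome 1 from 153899944 to 153909723 on the plus strand (GRCm38). Glul measured 251 FPKM in the lowest NC mouse, 309.8 at the median and 336 in the highest. In the HFD mice the lowest, median and highest values were 401, 456 and 516.5 FPKM. Every HFD mouse was above every NC mouse. The means were 296 ± 34.6 FPKM in NC and 453 ± 38.8 FPKM in HFD (± SD, with n = 6 in each group here and throughout). On the log2 scale Glul rose by 0.62 with a standard error of 0.09, at an adjusted p of 0.000762 in limma's test. It was called in all 24 alternative settings, with log2 values from 0.57 to 0.81, and was 0.58 without the sixth NC mouse.

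Rgn encodes regucalcin, a calcium-binding gluconolactonase, and lies on the X chromosome from 20549787 to 20562089 on the plus strand. Its values in NC ran from 184.5 FPKM over a median of 272 to 437, and in HFD from 401 over 542 to 705. The groups overlapped only through the highest NC mouse, which exceeded the lowest HFD mouse. That NC mouse, at 437 FPKM with the next at 339.6, is the sixth, which carries the high-fat diet label, and without it the groups did not overlap. The means were 287 ± 92.2 FPKM and 555 ± 126 FPKM, and the log2 fold change was 0.98 (SE 0.21, adjusted p = 0.00518 in limma's test). Rgn was called in all 24 alternatives, and stood at 1.11 (adjusted p = 0.00179) without the sixth NC mouse.

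Rhbg encodes an ammonium transporter of the Rhesus family, which brings ammonium into the same cells that hold glutamine synthetase, and lies on chromosome 3 from 88242874 to 88254709 on the minus strand. It measured 0.410, 0.857 and 1.30 FPKM in the lowest, median and highest NC mouse, and 1.59, 1.91 and 2.65 FPKM in HFD. The groups did not overlap. The means were 0.834 ± 0.364 FPKM and 2.004 ± 0.432 FPKM, and the log2 fold change was 1.25 (SE 0.25, adjusted p = 0.00401 in limma's test), on no more than 44 fragments in any NC mouse. The NC mean lay below the 1 FPKM required over all mice, and the fit without that filter called Rhbg too. It was called in each of the 23 alternatives that tested it. Without the sixth NC mouse, the lowest of NC, the log2 fold change of Rhbg was 1.09 (adjusted p = 0.00616 in limma's test). The annotated gene Gm38392 spans Rhbg on the same strand and was listed at 0 to 0.0311 FPKM.

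Oat encodes ornithine aminotransferase, which turns ornithine into glutamate and so feeds glutamine synthesis, and lies on chromosome 7 from 132557478 to 132576398 on the minus strand. In NC it ran from 930 FPKM over a median of 1041 to 1332, and in HFD from 581 over 818 to 994 FPKM. All 6 HFD mice lay below the NC mean, and the groups overlapped. The means were 1085 ± 137 FPKM and 797 ± 150 FPKM, and the log2 fold change was −0.46 (SE 0.13, adjusted p = 0.0276 in limma's test). This call was lost in 6 of 24 alternatives. Without the first NC mouse the adjusted p was 0.05, without the first HFD mouse 0.0543 and without the fourth HFD mouse 0.0617, and after rescaling to a common sum the log2 value was −0.27 (adjusted p = 0.0856).

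Cyp2e1 and Cyp1a2 encode cytochromes P450 of pericentral hepatocytes, the former known for oxidising ethanol and fatty-acid products and the latter an aryl hydrocarbon receptor target that oxidises caffeine. Cyp2e1, on chromosome 7 from 140763739 to 140774987, had a mean of 4678 ± 556 FPKM in NC and 4921 ± 588.5 in HFD, with a log2 difference of 0.07 and a 95% interval of −0.17 to 0.32. Its values ran from 3947 over 4710 to 5319 FPKM in NC and from 4242 over 4875 to 5909 FPKM in HFD. Cyp1a2, on chromosome 9 from 57676937 to 57683703, ran from 77.3 over 127 to 147 FPKM in NC and from 110 over 166 to 206 FPKM in HFD. Its log2 difference was 0.50 (95% interval 0.09 to 0.92, adjusted p = 0.0786 in limma's test), with 5 of 6 HFD mice above the NC mean. Cyp1a2 passed without the first HFD mouse, at 0.61 (adjusted p = 0.0379), and in 3 other settings. Without the sixth NC mouse, the highest of NC, Cyp1a2 stood at 0.58 (adjusted p = 0.0563 in limma's test) and was not called.

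Slc1a2 encodes the glutamate transporter GLT-1, which brings glutamate into the glutamine-making cells, and lies on chromosome 2 from 102658659 to 102790784. Its values ran from 12.8 over 15.9 to 19.0 FPKM in NC and from 17.0 over 21.1 to 24.7 FPKM in HFD, and all 6 HFD mice were above the NC mean. The log2 difference of 0.36 had an adjusted p of 0.0501 in limma's test, just outside the threshold, and 11 of 24 alternatives called it. Those that leave out a mouse and called it were the fits without the third or the fourth NC mouse and without the first or second HFD mouse, with log2 values from 0.41 to 0.42.

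Axin2, Lgr5 and Tbx3 are the members most directly tied to Wnt signalling. Axin2, a scaffold of the complex that destroys beta-catenin and itself a beta-catenin target, lies on chromosome 11 from 108920349 to 108950783. It ran from 1.39 over 1.85 to 2.57 FPKM in NC and from 1.22 over 1.68 to 1.96 FPKM in HFD, with a log2 difference of −0.25 (95% interval −0.62 to 0.12). Tbx3, a T-box repressor and beta-catenin target on chromosome 5 from 119670669 to 119684724, ran from 3.66 over 6.15 to 8.998 FPKM in NC and from 3.69 over 5.55 to 6.17 FPKM in HFD, with a log2 difference of −0.28 (−0.70 to 0.13). Without the sixth NC mouse, the highest of NC, the difference of Tbx3 was −0.17. Lgr5, the R-spondin receptor, on chromosome 10 from 115450311 to 115587780, was below the mean of 1 FPKM that testing required. It ran from 0.352 over 0.632 to 1.01 FPKM in NC and from 0.310 over 0.656 to 0.941 FPKM in HFD, and a fit without the filter gave −0.11 (−0.73 to 0.50). The groups overlapped for all 3, and the lower ends of the intervals stand for fold changes of 0.652 for Axin2, 0.615 for Tbx3 and 0.605 for Lgr5. The antisense gene Tbx3os1 overlaps Tbx3 and measured 0.4875 to 2.45 FPKM over all mice. The strand setting of the counting is not stated in the sources used here, so fragments of these partners may not be separated.

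**Figure D2:**
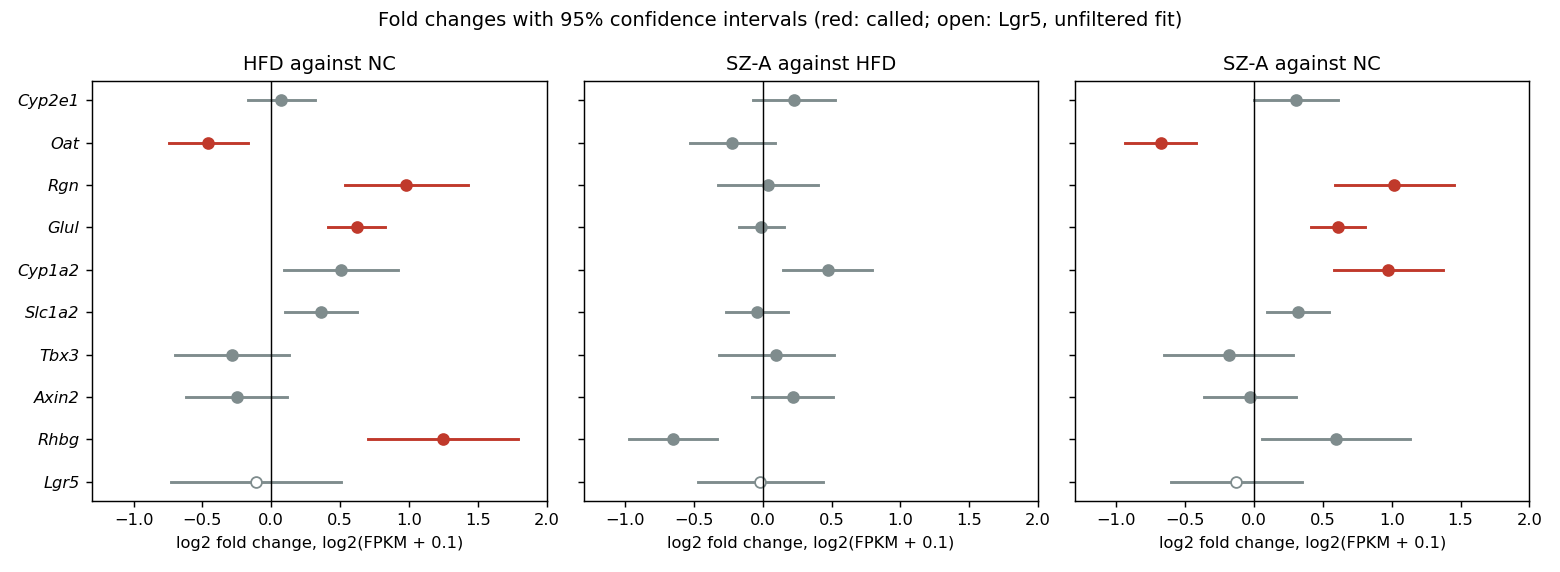
Log2 fold changes on the log2(FPKM + 0.1) scale (horizontal axis) of the 10 members in the 3 comparisons, with 95% confidence intervals from limma. Called members are in red, and the open point is Lgr5 from the fit without a filter. The 4 red points in each comparison with NC hold Glul, Rgn and Oat on the same sides, and no point is red between SZ-A and HFD.

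Between the SZ-A and HFD mice, which ate the same diet, no member passed the test, beside 0.147% of all tested genes (0.0783% higher and 0.0685% lower). At an unadjusted p below 0.05 in limma's test there were 2 of 9 members, Rhbg and Cyp1a2, beside 14.8% of all tested genes. The voom method of limma on recovered fragments also called 0 members, with plain totals as with median-of-ratios library sizes. The groups overlapped for all 10 members, while 1.28% of all tested genes did not overlap. The median log2 difference of the 9 members was 0.04, beside 0.03 for all genes.

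Rhbg was the member furthest from the HFD level. In SZ-A it measured 0.989, 1.22 and 1.61 FPKM in the lowest, median and highest mouse, and all 6 mice were below the HFD mean of 2.004 FPKM. The log2 difference was −0.65 (95% interval −0.97 to −0.33, adjusted p = 0.0961 in limma's test). It passed in 1 of 23 alternatives, after rescaling to a common FPKM sum (log2 difference −0.82, adjusted p = 0.0315), which also moved the median of all genes to −0.15. Cyp1a2 measured 188, 212 and 285 FPKM in the lowest, median and highest SZ-A mouse, and all 6 were above the HFD mean of 164 FPKM. Its log2 difference was 0.47 (0.15 to 0.80, adjusted p = 0.173 in limma's test), and no alternative called it.

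Glul, the defining pericentral gene, was at 414, 450 and 490 FPKM in the lowest, median and highest SZ-A mouse. Its log2 difference from HFD was −0.01, with a 95% interval of −0.17 to 0.15, which spans fold changes of 0.887 to 1.11. Rgn ran from 381 over 593 to 655.5 FPKM, with a difference of 0.04 (−0.32 to 0.40). Slc1a2 ran from 18.1 over 19.95 to 23.0 FPKM, with a difference of −0.04 (−0.27 to 0.19). The sign of each of these 3 differences turned in some alternatives. Oat ran from 540 over 679 to 821 FPKM, with a difference of −0.22 (−0.53 to 0.09), and 5 of 6 SZ-A mice lay below the HFD mean. Cyp2e1 ran from 3857 over 6081 to 6824 FPKM, with a difference of 0.23 (−0.07 to 0.53), and 5 of 6 lay above. Axin2 ran from 1.46 over 1.95 to 2.14 FPKM (0.22, −0.07 to 0.51) and Tbx3 from 3.39 over 5.27 to 8.34 FPKM (0.10, −0.32 to 0.52). Lgr5 ran from 0.462 over 0.595 to 0.648 FPKM, and its unfiltered difference was −0.02 (−0.47 to 0.44). A p that misses the threshold does not show equal levels, and the upper ends of the intervals stand for fold changes of 1.43 for Tbx3, 1.36 for Lgr5 and 1.32 for Rgn.

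Between the SZ-A and NC mice, Glul, Rgn and Cyp1a2 rose and Oat fell, 4 of 9 tested members beside 9.6% of all tested genes. Upward calls were 3 of 9 beside 5.31%, and the downward call was 1 of 9 beside 4.3%. The median log2 difference was 0.32, beside −0.01 for all genes, and the groups did not overlap for 3 of the 10 members, beside 5.5% of all tested genes. At an unadjusted p below 0.05 there were 6 of 9, beside 25.5% of all tested genes. This comparison shares its NC mice with the comparison of HFD against NC and its SZ-A mice with that of SZ-A against HFD, so the 3 sets of values are not independent. Cyp1a2 had a log2 fold change of 0.98 (SE 0.18, adjusted p = 0.00654 in limma's test), from a mean of 117 ± 31.3 to 226 ± 40.8 FPKM, with no overlap. Glul had 0.61 (SE 0.09, adjusted p = 0.00197), also with no overlap. Oat had −0.68 (SE 0.12, adjusted p = 0.00469), from 1085 ± 137 to 681 ± 109 FPKM, with every SZ-A mouse below every NC mouse. Rgn had 1.02 (SE 0.20, adjusted p = 0.0084), and its groups overlapped only through the sixth NC mouse. Without that mouse Rgn was at 1.15 (adjusted p = 0.00371 in limma's test) with no overlap. Each of these 4 calls was made in all 24 alternatives.

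The other members did not pass between SZ-A and NC. Rhbg had a log2 difference of 0.60 (95% interval 0.06 to 1.13, adjusted p = 0.151 in limma's test), Slc1a2 0.32 (0.10 to 0.55, adjusted p = 0.0695) and Cyp2e1 0.30 (−0.0004 to 0.61, adjusted p = 0.197). All 6 SZ-A mice were above the NC mean for Rhbg and Slc1a2, and 5 of 6 for Cyp2e1. Without the sixth NC mouse Rhbg stood at 0.44 (adjusted p = 0.249 in limma's test). Cyp2e1 turned on a single mouse. Without the fifth SZ-A mouse, the lowest of its group, Cyp2e1 stood at 0.42 (adjusted p = 0.0235) and was called. Tbx3 was at −0.18, Axin2 at −0.03 and Lgr5, unfiltered, at −0.13, each with an interval that spans 0. Side by side, the log2 difference from NC was 1.25 in HFD and 0.60 in SZ-A for Rhbg, and 0.50 in HFD and 0.98 in SZ-A for Cyp1a2. The direct comparison of SZ-A with HFD, given above, is the test of those gaps.

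Beyond the 10 members, 23 further genes known to be pericentral were listed, and 22 were tested. Between HFD and NC, 11 of 22 rose and 3 fell, beside 10.7% and 9.49% of all tested genes, and the median log2 fold change was 0.43. Slc13a3, a dicarboxylate transporter, rose most, from 1.45 ± 0.558 to 9.43 ± 1.94 FPKM (log2 2.70, adjusted p = 4.1e-05 in limma's test). Cyp2a5 rose from 98.4 ± 45.8 to 342 ± 84.0 FPKM (1.91), Lect2, a secreted hepatokine, by 1.15 on the log2 scale, and Aldh1a1, a retinal dehydrogenase, by 0.99. Gulo, the last enzyme of vitamin C synthesis, rose by 0.73 and Cldn2, a pericentral tight junction protein, by 0.72. Slc1a4, an amino acid transporter, rose by 0.92, with means of 0.732 FPKM in NC, 1.62 FPKM in HFD and 0.782 FPKM in SZ-A. It thus reached the mean required for testing only through HFD, and it is counted among the 11. With a required mean of 5 FPKM, which leaves Slc1a4 out, 10 of 19 rose and 3 fell. These 10 still include Slc13a3, which reached the required 5 FPKM only through its HFD mean of 9.43 FPKM. Its mean was 1.45 FPKM for NC mice and 4.69 FPKM for SZ-A mice. The higher filter thus does not remove every gene that entered through HFD. Cyp7a1, the rate-limiting enzyme of bile acid synthesis, rose by 0.80 and Cyp2c38 by 0.66. Nr1i3, the nuclear receptor CAR, rose by 0.38. Slc1a4 was called in only 9 of 23 alternatives, Cyp7a1 in 13 of 24 and Nr1i3 in 18 of 24, and each of the others named as higher in all that tested it.

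The 3 that fell were Cyp3a11, from 588 ± 100 to 184 ± 70.8 FPKM (log2 −1.74), Avpr1a, a vasopressin receptor, from 12.7 ± 4.55 to 4.11 ± 1.05 FPKM (−1.57), and Cyp2c37 (−0.55), whose call held in only 8 of 24 alternatives. The Cyp2a, Cyp2c and Cyp3a genes have close copies that share reads, so their values are uncertain. Without the sixth NC mouse 8 rose and 2 fell. Between SZ-A and NC, 7 rose and 1 fell, beside 5.31% and 4.3% of all tested genes, with a median of 0.53. Among those that rose were Slc13a3 (1.64), Lect2 (1.05), Gulo (1.01), Slco1b2 (0.73), Nr1i3 (0.69) and Cldn2 (0.61), and Cyp3a11 fell by 2.31 on the log2 scale. The call of Nr1i3 held in 17 of 24 alternatives and was lost without the second NC mouse and without each SZ-A mouse but the fifth. Without the fifth SZ-A mouse 11 rose and 1 fell.

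Avpr1a was the only gene of this list called between SZ-A and HFD in the main fit. Sample weights called 2 higher and 1 lower, beside 108 and 125 of 10216 genes. Without the fifth SZ-A mouse 2 were higher, beside 12. Rescaling and voom on plain totals each called 1 lower, beside 206 and 56. In the main fit Avpr1a rose from 4.11 ± 1.05 to 11.1 ± 2.39 FPKM (log2 1.43, adjusted p = 0.0103 in limma's test), beside a mean of 12.7 FPKM in NC. The call held in 22 of 24 alternatives, and was lost with no filter on low values and with a replicate block. The next largest difference was that of Slc13a3, which had a mean of 4.69 ± 1.55 FPKM in SZ-A and 9.43 ± 1.94 in HFD (log2 difference −1.06, adjusted p = 0.0961 in limma's test). The groups did not overlap for these 2 genes of the list, beside 1.28% of all tested genes.

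Genes of the opposite pole of the lobule mostly fell between HFD and NC. Of 17 genes known to be periportal, all tested, 12 fell and 3 rose, beside 9.49% and 10.7% of all tested genes, and the median log2 fold change was −0.94. After rescaling to a common sum 8 fell and 4 rose, beside 334 lower and 2100 higher of all 10216 tested genes. Enzymes of 4 steps of the urea cycle were among those that fell. Cps1 went from 1181 ± 288 to 440.5 ± 69.7 FPKM (log2 −1.40) and Asl from 326 ± 157 to 75.6 ± 9.65 FPKM (−1.999), and Ass1 (−1.08) and Arg1 (−1.14) followed. Otc, the remaining step, is on another list and did not pass, with a log2 difference of 0.36 (adjusted p = 0.0638 in limma's test). Pck1 and G6pc, enzymes of glucose production, fell by 1.15 and 1.26 on the log2 scale. Sds (−1.02) and Hal (−0.94), which break down serine and histidine, and Gls2, the liver glutaminase (−0.67), fell as well, as did Cdh1, E-cadherin (−1.04), Fbp1 (−0.46) and Hsd17b13 (−0.44). Of 24 alternatives, 15 called G6pc, 16 Hsd17b13, 19 Hal and 23 Fbp1. The 3 that rose were Ctsc (0.99), Hsd17b6 (0.89) and Aldh1b1 (0.82), and Hsd17b6 was called in 18 and Aldh1b1 in 20 of 24 alternatives. Between SZ-A and NC, 9 fell and 2 rose, beside 4.3% and 5.31% of all tested genes, with a median of −0.81. Pck1, among those that fell, was called in 20 of 24 alternatives. None was called between SZ-A and HFD. Rescaling called 2 lower there, beside 206 of 10216 tested genes, and sample weights 1 higher, beside 108. In the main fit of that comparison limma's adjusted p was lowest for Pck1 (0.133, 762 ± 145 FPKM against 525 ± 95.6 in HFD).

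**Figure D3:**
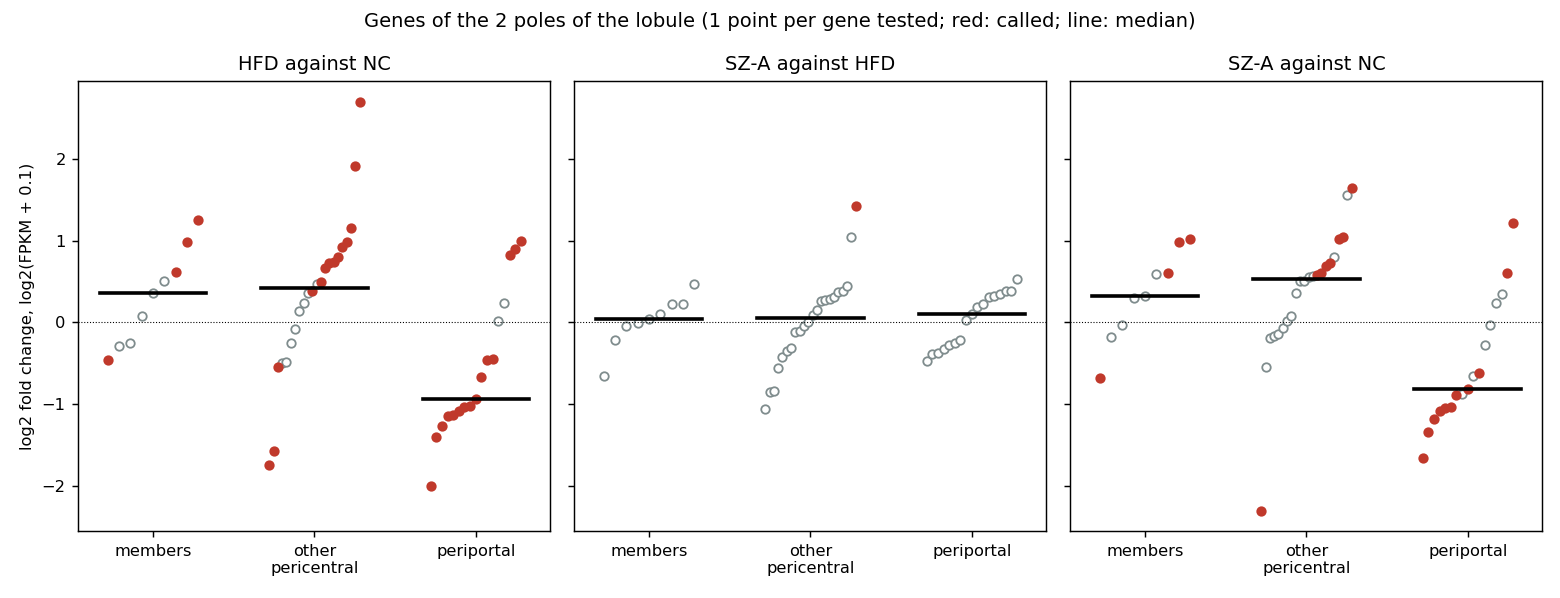
Log2 fold changes on the log2(FPKM + 0.1) scale (vertical axis) of the 9 tested members, 22 other pericentral genes and 17 periportal genes in the 3 comparisons, 1 point per gene, with called genes in red and a line at the median. Between HFD and NC the medians were 0.36, 0.43 and −0.94, and between SZ-A and HFD 0.04, 0.05 and 0.10.

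The genes that supply and read the Wnt signal were mostly low in whole liver. Of 9 genes for Wnt ligands, R-spondins and their secretion only Wnt2 and Rspo3 reached the mean of 1 FPKM. Wnt2 measured 2.21 ± 0.459 FPKM in NC, 2.66 ± 1.23 for HFD and 2.74 ± 0.489 for SZ-A, and Rspo3 2.02 ± 0.476, 2.31 ± 0.193 and 2.21 ± 0.505 FPKM. Neither passed in any of the 3 comparisons. Of 9 tested Wnt receptors, Fzd4 rose between HFD and NC, from a mean of 5.05 to 7.53 FPKM (log2 0.57, adjusted p = 0.00105 in limma's test), and Lrp5 fell from a mean of 14.0 to 9.15 FPKM (−0.61, adjusted p = 0.000615). Ryk, an atypical Wnt receptor, fell by 0.27 on the log2 scale, a call that held in 14 of 24 alternatives. These 3 of 9 receptors stand beside 20.2% of all tested genes. Lrp5 was also lower in SZ-A than in NC (−0.53, adjusted p = 0.00459). None of the 6 tested inhibitors passed in the main fit of a comparison, among them the beta-catenin targets Notum, Znrf3, Rnf43 and Nkd1. Fits without 1 mouse called at most 1 inhibitor in each comparison. Sample weights called 1 higher and 1 lower between HFD and NC. Notum measured 10.9 ± 4.21 FPKM in NC, 9.15 ± 0.802 for HFD and 12.04 ± 2.18 for SZ-A.

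Within the beta-catenin complex and its nuclear partners, 14 of 18 genes were tested. Gsk3a and Dvl1 fell between HFD and NC, both by 0.27 on the log2 scale (adjusted p = 0.0171 and 0.0359 in limma's test), and none was called in the other comparisons. These 2 of 14 stand beside 20.2% of all tested genes. The call of Gsk3a held in 12 of 24 alternatives and that of Dvl1 in 10. After rescaling 2 genes of the list were higher and 0 lower, beside 2100 and 334 of all 10216 tested genes. Voom on plain totals also gave 2 higher and 0 lower, beside 2010 and 409. Ctnnb1, which encodes beta-catenin, had a mean of 34.6 ± 3.01 FPKM in NC, 39.4 ± 1.69 for HFD and 39.6 ± 1.15 for SZ-A. Its log2 difference between HFD and NC was 0.19 (adjusted p = 0.0765), and its groups did not overlap between HFD and NC or between SZ-A and NC.

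Genes that handle glutamine, glutamate and ornithine lie next to Glul, Oat and Slc1a2 in metabolism. Of 12 tested, Got1 (log2 −2.27), Slc25a15, the mitochondrial ornithine carrier (−1.16), and Gls2 (−0.67) fell between HFD and NC, and Prodh, proline dehydrogenase, rose (0.45). That is 1 higher and 3 lower, beside 10.7% and 9.49% of all tested genes. After rescaling 5 were higher and 3 lower, beside 2100 and 334 of all 10216 tested genes. Got1, the cytosolic aspartate aminotransferase, went from 283 ± 134 to 55.7 ± 15.8 FPKM, with no overlap. The 3 that fell were also lower in SZ-A than in NC, at −2.47, −1.12 and −0.89 for Got1, Slc25a15 and Gls2. Without the fifth SZ-A mouse 3 further genes of this list rose between SZ-A and NC. Glud1, glutamate dehydrogenase, had a difference of 0.32 between HFD and NC (adjusted p = 0.0596 in limma's test). For the receptor that drives Cyp1a2, 5 of 8 pathway genes were tested. Ahr itself measured 8.22 ± 1.84 FPKM in NC, 7.76 ± 1.80 for HFD and 10.7 ± 2.52 for SZ-A, and did not pass in a comparison of those groups. Tiparp, a target of the receptor, rose between HFD and NC (0.63, adjusted p = 0.0302 in limma's test), a call made in 15 of 23 alternatives. This 1 of 5 stands beside 20.2% of all tested genes. After rescaling 3 genes of the list were higher, beside 2100 of all 10216 tested genes. Cyp1a1 was at a mean of 0.174 FPKM in NC and 0.222 in HFD, too low to test.

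Of the other 9 members, only Rgn was related to Glul from mouse to mouse past the threshold, and in the opposite direction. Correlations were taken over the 18 mice after each group's mean was subtracted on the log2(FPKM + 0.1) scale, for 9 pairs in all, with 100000 permutations for each p. For Rgn Pearson's r was −0.706 (permutation p = 0.00104, adjusted p = 0.00936 over the 9 pairs) and Spearman's rho −0.756 (permutation p = 0.00048, adjusted p = 0.00432). Without the 2 mice farthest from the median of Glul r was −0.597. Within each group of 6 mice the values of r were −0.677 (NC), −0.67 (HFD) and −0.851 (SZ-A). After rescaling to a common FPKM sum r was −0.37 (permutation p = 0.13, adjusted p = 0.253), so the relation was not past the threshold on that scale. The other 8 pairs ran from an r of −0.294 for Cyp2e1 to 0.375 for Slc1a2, and the smallest adjusted permutation p among them was 0.569. The smallest r values in size were those of Oat (0.0194), Cyp1a2 (−0.0621) and Tbx3 (−0.0668).

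**Figure D4:**
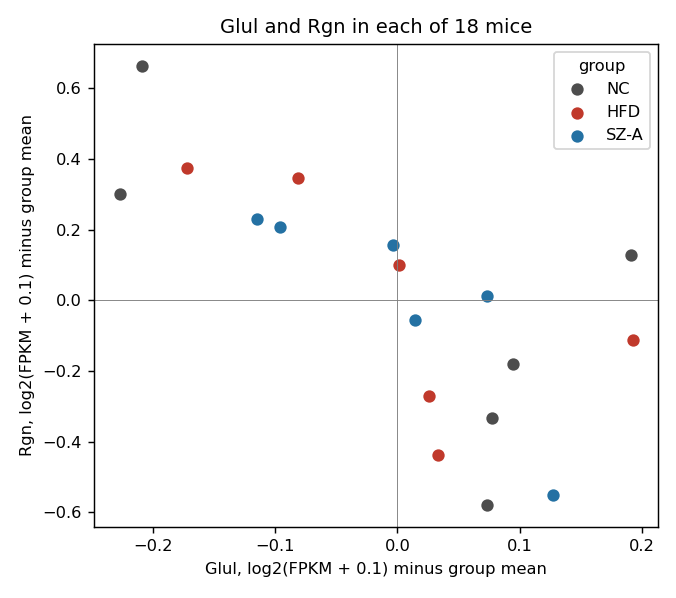
Log2(FPKM + 0.1) of Rgn (vertical axis) against Glul (horizontal axis), each minus the mean of the mouse's group, for 18 mice coloured by group. The points fall from upper left to lower right, with Pearson's r of −0.706 over all mice and −0.677, −0.67 and −0.851 within NC, HFD and SZ-A.

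The genes nearest to Glul by the same measure, over 10215 others and 18 mice, were Ccdc91 (r = 0.882), Etv6 (0.835), Plaa (0.824), Pramef8 (0.822) and Tacc2 (0.795), all with a mean below 10 FPKM in each group. None of the members was near the top. Slc1a2 had rank 1082 and Rgn rank 10167, close to the last. The genes nearest to Cyp2e1 were Paox (0.877), Aldh6a1 (0.852), Cyp2c50 (0.852), Mut (0.851) and Ak3 (0.847), of which Cyp2c50 is on the list of other pericentral genes. Among the members, Rgn (0.519) and Slc1a2 (0.454) had the highest r with Cyp2e1 and Axin2 the lowest (−0.617). These values describe how 18 livers varied together in a shared library preparation and depth.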

How the data were processed

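Liver RNA of 18 mice (6 NC, 6 HFD, 6 SZ-A, grouped by their titles) was selected for poly-A and sequenced as 150-base paired reads (NEBNext Ultra kit). The authors aligned reads to mm10/GRCm38 with HISAT2 2.0.5 and, per the labels, used featureCounts 1.5.0-p3. The deposited values are FPKM per gene. The tool that made them is not given in the sources used here, and the strand setting is not stated. The FPKM values gave whole fragments within 0.05 for 100% of values, at 17163191 to 20493907 fragments per mouse. Within groups every pair of mice differed by far more than counting noise (chi-square of 18.6 or more for each degree of freedom).

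Genes with a mean of at least 1 FPKM over the 18 mice (10216) were tested on log2(FPKM + 0.1), with limma 3.58.1 in R 4.3.3 (lmFit, eBayes with a trend), each comparison on its own 2 groups. Fold changes on this scale understate those of low genes. Called means a Benjamini-Hochberg adjusted p below 0.05 and a fold above 1.2. The fits were tested on simulated data. Correlations used scipy 1.17.1. All 10 members were named, with, from each other list, the called genes (1 is not reported here) and up to 2 with the largest change, and the 5 genes nearest to Glul and to Cyp2e1. Further genes of those lists (Wnt2, Rspo3, Notum, Znrf3, Rnf43, Nkd1, Ctnnb1, Glud1, Cyp1a1) were named after their values were seen. The members and lists were chosen with earlier results of these data known. Alternatives covered the pseudocount, the filter, scaling, voom on the recovered fragments, sample weights, a single fit of all mice, a replicate block and leaving out each mouse.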

Additional observations from a re-analysis of the deposited data

Results flagged for a closer look

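Cyp2e1 in the fifth SZ-A mouse, at 3857 FPKM, was set apart because its gap to the nearest of the other 5 mice exceeded the critical share of the group's range in Dixon's test. Rgn in the same mouse, at 381.2 FPKM, met the same criterion. Both were the lowest of their group, and this mouse had the highest Glul level of the SZ-A group. Without it the log2 difference between SZ-A and NC was 0.42 for Cyp2e1 and 1.13 for Rgn. Chance alone flags about 5% of groups, and 30 groups were examined, 10 genes in 3 groups each.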

How the results depend on the processing

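Among the 24 alternatives per comparison, rescaling FPKM to a common sum moved the median log2 difference of all genes from −0.03 to 0.15 between HFD and NC and from 0.03 to −0.15 between SZ-A and HFD. It split the calls between HFD and NC into 2100 higher and 334 lower, against 1092 and 970. Relative to the median of all genes between HFD and NC, Glul stood at 0.653 before rescaling and 0.659 after it. Oat stood at −0.424 before and −0.419 after. Rescaling divides all genes of a mouse by the same factor. Values relative to the median therefore stay nearly the same by construction, and their likeness is not a test. Between SZ-A and HFD the calls over all genes went from 15 to 216 with rescaling and to 233 with sample weights. After rescaling 1 member was called between SZ-A and HFD in place of 0, namely Rhbg. There, 2 periportal genes, 1 other pericentral gene and 1 gene of the aryl hydrocarbon receptor pathway were also called lower. In the same comparison Rgn was at −0.139 and Tbx3 at −0.075, while voom with plain totals gave −0.074 for Rgn and −0.011 for Tbx3, and sample weights gave 0.007 for Glul and 0.056 for Slc1a2. Leaving out 1 mouse gave −0.048 to 0.150 for Rgn, −0.045 to 0.028 for Glul, −0.095 to 0.013 for Slc1a2 and −0.025 to 0.229 for Tbx3. Axin2 between SZ-A and NC was 0.012 with voom on plain totals and −0.113 to 0.054 without 1 mouse. None of these reversed values passed the test. The r with Glul changed sign after rescaling for Cyp1a2 (0.0579), Oat (−0.226) and Tbx3 (0.149) and with median-of-ratios scaling for Oat (−0.0245), and the r of Rgn weakened to −0.37 after rescaling. The cause was not tested. Without 1 mouse, 3 to 5 members were called between HFD and NC, 4 to 5 between SZ-A and NC and 0 between SZ-A and HFD.

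Same-numbered mice of different groups were mostly little alike. The correlation of their deviations ran from −0.117 to 0.292 and exceeded 0.1 in 3 of 18 pairs. In 4 of the 18 pairs it was above the correlations of the first mouse with the other mice of the second group. Low correlations cannot show whether the mice were paired by design. With a replicate block, 4 members were called between HFD and NC, 5 between SZ-A and NC, where Slc1a2 joined (log2 0.322, adjusted p = 0.0283 in limma's test), and 0 between SZ-A and HFD. Over all genes the block gave 1647, 922 and 0 calls, against 2062, 981 and 15. Depth limits Rhbg, Axin2 and Lgr5 most, which had at most 245 fragments in any mouse.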
